A study of Arabidopsis thaliana with 31 samples.

Results

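The 4 stele cells isolated 16 h after removal of the root tip were compared with the 20 single QC cells of the same series, which together make up 24 of its 31 libraries. Members were chosen by their labels of cell type and time, and the 4 aliquots of pooled and split QC cells were left out. All plants were Col-0. The QC cells came from roots labeled 6 DAS (days after stratification) carrying *WOX5:GFP*, although the methods give a younger age at harvest for these plants. They were picked by hand under fluorescence from roots that had not been cut. The stele cells came from plants of 7 DAS carrying *WOL:CRE-GR 35S:lox-CFP*, in which the *WOL* promoter, active in the stele, drives a recombinase that dexamethasone switches on, so that the stele and its later daughters keep CFP even where *WOL* itself goes silent. The 3 stele cells isolated at 0 h came from the same line and labeled age and were cut just before harvest. They serve as the reference for what stele cells held before regeneration. Roots of every group were also kept about 1 h in enzymes that loosen cell walls. Below, before regeneration therefore means in the 0 h cells, which had already been cut and digested. Line, age, dexamethasone and excision all differ between the QC cells and the 16 h cells and cannot be told apart from cell type here. The methods speak of roots from 1 plate and of QC cells collected in several batches, and no label ties a cell to a plant or a batch, so a group counts as 1 sample. No test of a difference was therefore made, and every comparison below is a description of these cells.

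The quiescent center (QC) is the small group of rarely dividing cells at the middle of the root stem cell niche. It is marked by the homeobox gene *WOX5* and is held in place by the PLETHORA (PLT) genes, whose AP2 proteins follow auxin, and by *SHR* and *SCR*, a pair of GRAS regulators that pattern the ground tissue. The stele is the inner tissue with the vascular cells and the pericycle. When the whole tip is cut off, the stump can rebuild a niche. The authors could not see where in the stump the 16 h cells had lain. They inferred that these cells did not come from its distal end, and proposed that they were possibly outside the zone of rapid reprogramming. The comparison describes which QC genes these cells held, and cannot tell whether they were on the way to a new niche.

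Expression is given as FPM, the share of a library's total per 1000000 with the reporter sequences left out, and values of the stele cells are listed in the order of their replicate numbers. After the log2 scale was undone the values were whole numbers, and library totals ran from 12071810 to 115114702 reads in QC cells and from 23387890 to 35185668 reads in the 16 h cells, so that 1 read stood for under 0.1 FPM in each. The number of loci at 1 FPM or more was 11455, 11282, 10130 and 8223 in the 16 h cells and ran from 1935 to 7426 in QC cells, with a median of 4001. Loci that most cells use were listed at 0 in some QC cells. For instance, *TUA6*, a tubulin, was above 0 in 12 of 20 QC cells and *ATMS1*, a methionine synthase, in 11. The authors removed genes with low coverage, and a listed 0 may be such a gene, so no fold is given against a group at 0. In addition, the genes listed for QC cells 8 to 13 were all among those of QC cell 1, those for QC cells 3 to 7 among those of QC cell 2, and those for QC cells 19 and 20 among those of QC cell 14. QC cells 15 to 18 are taken below as the last of 4 groups, or sets, of QC libraries, and whether these sets are the batches of collection cannot be told from the labels. The 3 other 16 h cells were likewise nested within replicate 1, and 0 h cells 2 and 3 within replicate 1 of their time. A gene at 0 in replicate 1 is thus at 0 in every stele cell of that time. Such zeros are no agreement between cells. QC cells 15 and 16 had a median absolute difference of 0.057 on the log2(FPM + 1) scale and QC cells 17 and 18 of 0.062. Next came QC cells 9 and 11 at 0.79 and QC cells 5 and 7 at 1.58, with every other pair at 3.72 or more. With only the nearly alike pairs, 15 with 16 and 17 with 18, each taken as 1 cell, 1310 genes were QC-high by the rule below. All 16 h cells had 1151 of them and lacked 11, 9 of these 11 among the 15 given below. By the same count, 17 genes of 16 h cells were in neither reference and 11 QC-high genes were gained.

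The labels held for the QC cells and held in part for the stele cells. *WOX5* was at 124 to 3193 FPM (median 835) in QC cells, and *BBM*, the PLT family gene also known from embryogenesis, at 2.13 to 1072 FPM (median 362), so that both markers were at 1 FPM or more in all 20. *SCR* reached 1 FPM in 12 of 20 QC cells. In the 16 h cells *WOL*, the cytokinin receptor that marks the stele, was at 99.7, 2.44, 1.06 and 0.257 FPM, *SHR* and *AHP6*, a cytokinin inhibitor of the protoxylem, were listed at 0 in all 4, and *ATHB8*, the procambium HD-ZIP III gene, was at 7.16, 0, 0.147 and 1.15 FPM. At 0 h *WOL* was at 125, 44.8 and 37.8 FPM, *SHR* at 49.7, 149 and 25.6 FPM and *ATHB8* at 325, 515 and 204 FPM. Their stele origin is given by the lineage mark, and replicate 1 was the one 16 h cell with *WOL* near its levels at 0 h.

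A gene was called QC-high when its median over QC cells was at least 10 FPM and it reached 1 FPM in at least 15 of the 20. There were 1506 such genes, or 13.1% of the 11523 genes with a median of 1 FPM or more in either group. All 4 of the 16 h cells had 1307 of them at 1 FPM or more, or 86.8%, and all 4 lacked 15, or 0.996%. The remaining 184 were present in 1 to 3 of the 4 cells. Taken cell by cell, the 16 h cells held 1464, 1462, 1447 and 1341 of the QC-high genes, the 0 h cells held 1473, 1396 and 1428, and single QC cells held from 957 to 1486 with a median of 1320.5. Every stele cell of either time thus held more of them than the median QC cell, and 1360 were present in 3 of 3 cells at 0 h, before regeneration. Loci of any kind at 1 FPM or more numbered at least 8223 in each stele cell and 4001 in the median QC cell. How far the counts of QC-high genes follow that number was not tested, and they are not read as a fuller QC set in stele cells.

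Levels were more spread than presence. Of the QC-high genes, 1298 had all 4 of their 16 h values within the range of the QC cells. By medians on the log2(FPM + 1) scale, 236 were lower by at least 2, 263 were higher by at least 2, and 1007 lay between. The median difference of QC-high genes was 0.16, whereas over all genes compared it was 3.05, with 67.7% of them higher by 2 or more and 2.97% lower. A difference of 2 is 4-fold only between levels well above 1 FPM, and it is no fold for the 4580 of the 7800 higher genes whose QC median was 0. For 1181 genes, or 10.2%, all 4 cells also lay above all 20 QC cells. Against single sets of QC libraries that shift ran from 1.92 to 3.11. QC cells had the shorter gene lists, whose part in it was not tested. Scaling by median ratio size factors gave 2.49 in place of 3.05, and a pseudocount of 0.1 FPM in place of 1 gave 5.34. The plot of group medians shows both facts, the QC-high genes spread about the line of equal medians and the bulk of the other genes near 0 in QC cells.

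**Figure D1:**
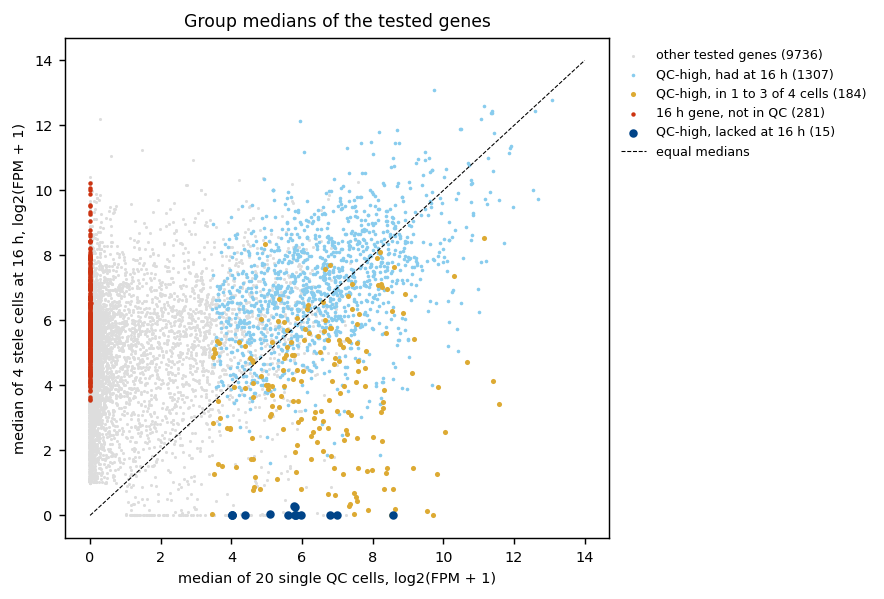
Each point is 1 gene, with the median of the 20 single QC cells on the x axis and the median of the 4 stele cells at 16 h on the y axis, both as log2(FPM + 1). The 15 QC-high genes that all 16 h cells lacked lie along the bottom, and the 281 genes of 16 h cells not in QC cells lie along the left edge.

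Of the 15 genes that regenerating stele cells lacked, 3 are on the list of QC and stem cell niche regulators, namely *PLT1*, *PLT2* and *WIP4*. Among the 15 were *PLT1* and *PLT2*, which set the position of the niche in a dose-dependent way, *WOX11*, a homeobox gene that starts adventitious roots, *WIP4*, a zinc finger gene that acts with its homologs in the root initial of the embryo, and *IAA33*, a divergent member of the Aux/IAA family. *PLT1* was at 0.674 to 1473 FPM (median 382) in QC cells and at 0.126, 0, 0 and 0 FPM at 16 h. *PLT2* was at 0.142 to 1177 FPM (median 55.1) and at 0.921, 0, 0.0366 and 0 FPM. The 16 h values of both lay under 1 FPM, as did 2 of the 20 QC cells for either gene. *WOX11* was at 0.163 to 990.1 FPM (median 55.7) in QC cells and listed at 0 in every stele cell of either time.

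*WIP4* was at 0.163 to 1357 FPM (median 61.3) in QC cells and at 0.167, 0, 0 and 0 FPM at 16 h. *IAA33* was at 0 to 828 FPM (median 54.6) and at 0.209, 0, 0 and 0 FPM. Both were listed in 16 h replicate 1 only, at 4 and 5 reads. *GH3.4*, which joins auxin to amino acids, was at 0.179 to 2032 FPM (median 126) in QC cells and at 0.796, 0, 0 and 0 FPM at 16 h, and its QC values differed between sets of libraries, with set medians from 0.226 to 342 FPM. *AT4G22190*, annotated as a serine/arginine repetitive matrix-like protein, was at 0 to 558 FPM (median 109) in QC cells and at 0 in all 16 h cells, although the 0 h cells had held 3.52, 22.4 and 25.7 FPM. *CYP81F3*, a cytochrome P450 of the family that modifies indole glucosinolates, was at 0.187 to 296 FPM (median 54.2) and at 0.921, 0.142, 0.256 and 0 FPM.

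The other 7 of the 15 had QC medians from 15.1 to 53.7 FPM. They were the glycosyltransferase *AT1G05675*, the Dof-type gene *AT4G00940*, the transporter *AT2G44280*, the zinc finger gene *AT1G75710*, the repressor *MYB7*, and *CYP81F4* with *AT4G37409*, an overlapping locus with near-equal values whose reads may be shared. *AT1G75710* had been at 21.3, 0.0711 and 11.8 FPM at 0 h and *MYB7* at 6.70, 1.35 and 0.836 FPM. Of the 15 genes, 7 were listed at 0 in all 16 h cells, a count that the gene list of replicate 1 decides. Of the 15, 7 were also under 1 FPM in all 0 h cells, so that 8 had been present in a stele cell before regeneration. Only 8 of the 15 had a median of 1 FPM or more in each of the 4 groups of QC libraries. Without 16 h replicate 1, the count of lacked genes was 27, and scaling by median ratio gave 32.

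*WOX5* and *BBM* fell outside the 15 through that same replicate. *WOX5* was at 1.51, 0, 0 and 0 FPM at 16 h and at 5.24, 0 and 0 FPM at 0 h. *BBM* was at 4.19, 0, 0 and 0 FPM at 16 h and at 10.9, 0 and 0 FPM at 0 h. In each case the stele cell with reads was replicate 1 of its time, the library with the longest gene list, and the highest *WOX5* value of a 16 h cell lay far under the lowest of the QC cells. Of the 18 QC-high genes present in exactly 1 of the 4 cells, 12 were present in replicate 1, 2 in replicate 2, 4 in replicate 3 and 0 in replicate 4. Conversely, replicate 4, with the fewest genes listed, was the missing cell for 106 of the 136 genes present in 3 of 4.

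**Figure D2:**
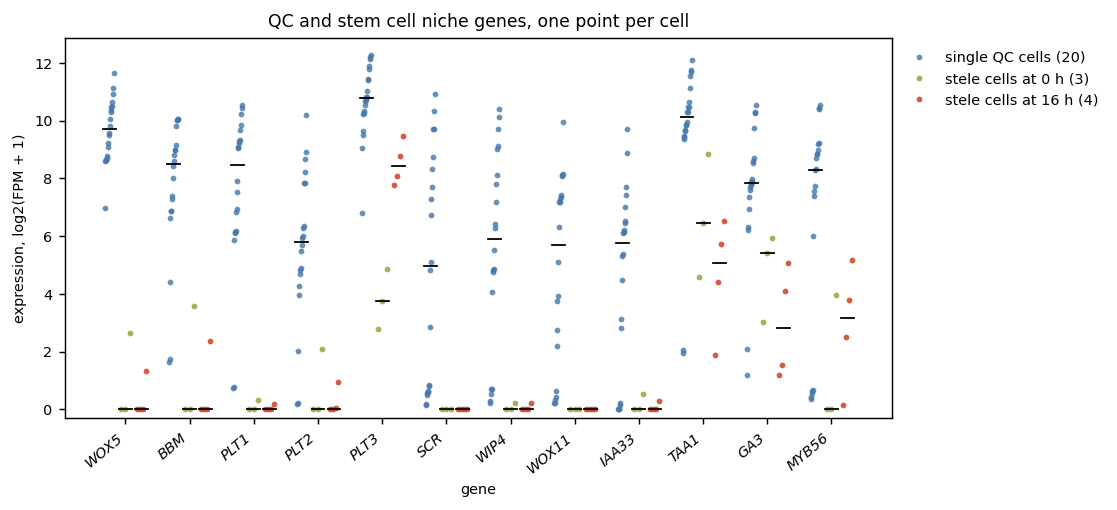
The y axis gives log2(FPM + 1) and each point is 1 cell, for 12 genes in the 20 single QC cells, the 3 cells of 0 h stele and the 4 of 16 h stele, with a bar at the group median. *WOX5*, *PLT1*, *SCR* and *WOX11* have no 16 h cell within the QC range, whereas the 4 values of *PLT3* at 16 h, from 219 to 701 FPM, lie inside it and above all 3 cells at 0 h.

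By the stricter rule that all 4 cells lie below all 20 QC cells and the medians differ by 2 or more, 8 genes were lower at 16 h, or 0.0694% of those compared. They were *WOX5*, *PLT1*, *WOX11*, *SCR*, *UGT73B5*, *AT1G75710*, *AT1G61065* and *MKK6*. *SCR* was at 0.106 to 1918 FPM (median 30.3) in QC cells and listed at 0 in every stele cell. *MKK6*, a MAP kinase kinase of cytokinesis, and *AT1G61065*, a DUF1218 protein, were also at 0 in all 16 h cells, against QC medians of 5.47 and 14.8 FPM. The count was 15 with the nearly alike QC pairs taken once, 21 with median ratio scaling and 26 without 16 h replicate 1. Against each of the 4 groups of QC libraries in turn, 64 genes were lower by 2 or more in log2 medians every time, 60 of them QC-high.

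*PLT3* differed from *PLT1* and *PLT2*. It was at 111 to 4911 FPM (median 1744) in QC cells, at 701, 437, 272 and 219 FPM at 16 h and at 28.0, 5.83 and 12.4 FPM at 0 h. Every 16 h cell held more *PLT3* than every 0 h cell, and every one lay within the QC range, with a median difference of -2.33 from QC cells on the log2(FPM + 1) scale. Its close homolog *PLT7* was at 2.93, 1.62, 2.27 and 2.22 FPM at 16 h, listed at 0 in the 3 cells at 0 h, and at 0 to 20.6 FPM (median 3.09) in QC cells. *PLT5* was listed at 0 in all stele cells. *PLT3*, *PLT5* and *PLT7* are known to act before lateral root founder cells divide and in shoot regeneration, ahead of *PLT1* and *PLT2*.

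Of the 24 QC and stem cell niche regulators listed, 16 passed the filter of a median of 1 FPM in either group. By 2 or more in log2 medians, 11 were lower at 16 h and 0 were higher, against 2.97% and 67.7% of all genes compared. The list was made of genes known from the QC or niche. *WOX5*, *BBM* and *PLT1*, with 16 h medians of 0, passed through their QC median alone, which sets their direction. The counts therefore describe the list only. The median difference of those that passed was -4.99, and it was -4.95 with median ratio scaling and between -6.58 and -3.34 against single groups of QC libraries. Besides *PLT3*, 3 regulators reached 1 FPM in every 16 h cell. These were *PLT7*, *GA3*, the ent-kaurene oxidase of gibberellin synthesis, at 1.26, 1.90, 32.8 and 16.3 FPM, and *TAA1*, the enzyme of the first step from tryptophan to auxin, at 90.4, 2.70, 20.3 and 51.9 FPM. QC cells held *GA3* at 1.27 to 1490.5 FPM (median 229.5) and *TAA1* at 2.87 to 4338 FPM (median 1128). The 0 h cells had both, at 42.1, 60.6 and 7.18 FPM and 86.6, 454 and 22.9 FPM, and the values of both times overlapped for either gene.

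*MYB56*, which marks the QC and regulates its divisions downstream of brassinosteroids, was at 4.73, 12.9, 0.11 and 35.3 FPM at 16 h, at 14.6, 0 and 0 FPM at 0 h and at 0.292 to 1480.3 FPM (median 314) in QC cells. The sulfotransferase *TPST*, which activates root growth factor peptides, was at 21.8, 49.0, 0.586 and 27.0 FPM, within the QC range of 0.061 to 571 FPM (median 31.1). The peptide gene *RGF3* was listed at 0 in all stele cells and was at 0 to 751 FPM (median 6.50) in QC cells. *JKD*, a BIRD partner of *SHR* and *SCR*, was at 0.963, 8.53, 2.09 and 0 FPM at 16 h, with 9 of 20 QC cells at 1 FPM or more. The brassinosteroid receptor *BRI1*, named after its values were seen, was at 1.63, 9.75, 1.58 and 0.47 FPM against 0.139 to 2324 FPM (median 229.7) in QC cells, though against the set of QC cell 2 alone its difference of -6.44 turned to 0.63.

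Conjugating enzymes, named here after their values were seen, were among the abundant genes of QC cells that the 16 h cells held at low levels. Enzymes of the UGT73B group glycosylate flavonoids and stress metabolites. *UGT73B4* was at 409.8 to 5379 FPM (median 3023) in QC cells and at 17.7, 1.65, 413 and 0.171 FPM at 16 h. *UGT73B5* was at 438 to 9667 FPM (median 2694) and at 32.5, 0.796, 172 and 0.0855 FPM. *UGT73B2* was at 3.75 to 3467 FPM (median 1058) and at 201, 3.98, 5.86 and 0.0855 FPM. The 0 h cells held *UGT73B4* at 48.6, 0.391 and 68.4 FPM and *UGT73B5* at 92.4, 0.178 and 29.2 FPM, which overlapped the 16 h levels, and UGT73B genes are similar enough that reads may be shared among them.

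*GH3.2*, another auxin conjugating enzyme, was at 0.669 to 7594 FPM (median 377) in QC cells and at 7.16, 0, 0 and 0 FPM at 16 h. *UGT74E2*, which glycosylates indole-3-butyric acid, was at 0.139 to 8443 FPM (median 392) and at 5.82, 0.199, 0.0733 and 0 FPM. Both varied widely over QC cells, with medians of 0.747 and 0.179 FPM in the set of QC cell 14. *IAGLU*, an indole-3-acetate glucosyltransferase gene, was at 0.693 to 1882 FPM (median 334) and at 2.68, 0.227, 18.5 and 0 FPM. *TGA7*, a bZIP factor of the salicylate and detoxification responses, was at 0.851 to 1089.5 FPM (median 233) and at 1.55, 0.114, 0.147 and 0 FPM. Of the 131 loci annotated as UDP-glycosyltransferases, 47 passed the filter, 6 were lower and 30 higher by 2 or more in log2 medians, against 2.97% and 67.7% of all genes compared. Of the 5 that were QC-high, 0 reached 1 FPM in all 16 h cells, against 86.8% of all QC-high genes. The family was taken up after low values of its members had been seen, so these counts describe it only.

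Sulfate assimilation, a list of 8 genes also drawn up after the values were seen, varied widely among the regenerating cells. All 6 of its QC-high genes were present in every 16 h cell, as were 86.8% of all QC-high genes. By medians 4 of the 8 were lower and 2 higher by 2 or more, against 2.97% and 67.7% of all genes compared. *APR3*, an adenosine phosphosulfate reductase, was at 924, 13.7, 2241 and 19.8 FPM at 16 h against 2.91 to 6805 FPM (median 1605) in QC cells. *APR1* was at 75.2, 8.70, 1676 and 1.41 FPM against 0.461 to 1850.2 FPM (median 512). *APS4*, an ATP sulfurylase, was at 5.36, 7.42, 63.4 and 12.1 FPM against 5.98 to 554 FPM (median 292). Replicate 3 held the highest level of each of these, and for *APR1* and *APR3* it exceeded the QC median.

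The 8 QC-high genes that ranked first by the lower of their group medians were the polyubiquitins *UBQ10*, *UBQ14* and *UBQ11*, the translation factor EF1α genes *AT1G07940*, *AT1G07920* and *AT1G07930*, *AT3G15450*, an aluminum induced protein, and *HSPRO2*. *UBQ10* was at 5185, 7934, 6082 and 7899.5 FPM at 16 h and at 1514 to 17254 FPM (median 8644) in QC cells. *AT1G07940* was at 6252, 6551, 3759 and 4959 FPM and at 129 to 8256 FPM (median 2658). The 3 EF1α loci are near-identical copies, as are parts of the polyubiquitin genes, so their single values are uncertain. *AT3G15450* was at 3202, 8014, 182 and 9327 FPM and at 0.791 to 19587 FPM (median 6161), and *HSPRO2* was at 3128, 3782, 715 and 4186 FPM and at 3.02 to 8477 FPM (median 2742), with 16 h replicate 3 the lowest of its group for both.

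Ribosomal protein genes lay on the high side at 16 h. Of 324 annotated loci, 274 passed the filter, 229 were higher by 2 or more in log2 medians and 1 was lower, against 67.7% and 2.97% of all genes compared. Their median difference was 4.18, and it was 3.47 with median ratio scaling, but against the 3 QC cells of the set of QC cell 14 it was 0.01, where all genes compared gave 2.10. Summed over the 324 loci, the level was 93615, 94232, 27981 and 55603 FPM in the 16 h cells, 37750.3, 27495 and 31973 FPM in the 0 h cells, and 9046 to 99414 FPM (median 18000.4) in QC cells. Of the 75 that were QC-high, 73 were present in every 16 h cell and 49 were higher by 2 or more, against 1307 and 263 of all 1506. Of the 13 annotated tubulin chains, 10 were higher by 2 or more and 0 lower. Their median difference was 3.93 and was 0.82 against the set of QC cell 14, and 12 of 13 chains reached 1 FPM in every 16 h cell and 7 in at least 15 QC cells.

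Of the QC-high genes, 17 were under 1 FPM in all 3 cells at 0 h, and 9 of these 17 were present in at least 3 of 4 cells at 16 h. These 9 are called gained here. They were *MBF1C*, *NADK1*, *FH8*, *RAN4*, *EXL3*, *AT3G03080*, *LRL1*, *HO3* and *HO4*. *MBF1C*, a coactivator of the heat response, was listed at 0 at 0 h, at 17.8, 16.6, 54.4 and 192 FPM at 16 h and at 0.0277 to 1479 FPM (median 38.7) in QC cells. *NADK1*, an NAD kinase, was at 7.08, 14.0, 349.9 and 38.3 FPM against 0.449 to 637 FPM (median 211). *EXL3*, an EXORDIUM-like gene, was at 25.9, 1.25, 265 and 0.0428 FPM against 0 to 2177 FPM (median 321). For *EXL3* replicates 2 and 4 stood near or under 1 FPM, and replicate 3 came closest to the QC median.

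*FH8*, a formin that nucleates actin, was at 0.126, 4.803, 89.3 and 23.1 FPM at 16 h against 0.139 to 1578 FPM (median 31.6) in QC cells. *LRL1*, a bHLH gene of root hair growth, was at 0.335, 67.9, 3.52 and 2.39 FPM against 0.244 to 958 FPM (median 94.9). *RAN4*, a Ran-type GTPase, was at 13.1, 14.6, 14.6 and 7.01 FPM against 0 to 68.8 FPM (median 22.3). *AT3G03080*, a zinc-binding dehydrogenase, was at 12.3, 2.98, 57.7 and 14.1 FPM against 0 to 129 FPM (median 32.8). *HO3* and *HO4*, heme oxygenases, stood between 0.837 and 2.64 FPM in all 16 h cells. The count depended on single cells, and was 4 without 16 h replicate 2 or 3, 5 without replicate 4, 25 without 0 h replicate 1 and 14 without 0 h replicate 2. It was 15 with median ratio scaling.

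In the other direction, 3934 genes were at 10 FPM or more in all 4 of the 16 h cells, or 34.1% of those compared, of which 1091 were QC-high, and 281, or 7.14%, were under 1 FPM in at least 19 of 20 QC cells. Of these 281, 111 were listed at 0 in all 20 QC cells. The set of QC cell 14 held 76 of the 281 at 1 FPM or more, in 1 cell each, against 7 to 26 in the other groups of QC libraries. Most were held by stele cells already before regeneration, as 205 were present in 3 of 3 cells at 0 h and 154 were at 10 FPM or more in all 3. For 33 of them the lowest 16 h value was at least 4 times the highest 0 h value, and for 0 the reverse held. The genes were chosen for 10 FPM or more in every 16 h cell, with no such demand at 0 h. These counts therefore cannot show a direction of change in time. The count of 281 was 161 with the nearly alike pairs taken once, 486 without 16 h replicate 4, 155 with the limit for high raised to 20 FPM and 136 with any read taken as present.

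Of the 8 most abundant of these genes, 7 are given here, and they covered stress and metabolism. *AT1G62480*, a vacuolar calcium-binding protein, was at 441, 2306, 1771 and 631 FPM at 16 h. *MGL*, a methionine gamma-lyase, was at 366, 2113, 1789.9 and 25.1 FPM, and *AT2G16660*, a membrane transporter, at 266, 1403, 965 and 922 FPM. *AT3G43430*, a RING protein, was at 495, 1263, 340.5 and 956 FPM. All of them were listed at 0 in every QC cell and were present in the cells at 0 h, at 1270.2, 4.62 and 828 FPM, 745, 106 and 849 FPM, 4.64, 420.3 and 246 FPM and 191, 85.6 and 461 FPM.

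The ACC synthases, which make the precursor of ethylene, were named after their values were seen. *ACS2* was at 199.8, 37.5, 279.6 and 0.171 FPM at 16 h and at 2.41, 0.284 and 62.6 FPM at 0 h, and *ACS6* at 50.9, 4.803, 332 and 0.128 FPM and 384, 47.1 and 84.9 FPM. *ACS2* was listed at 0 in all QC cells, and 4 of 20 QC cells held *ACS6*. Replicate 4 had the lowest level of both synthases. *NDPK3*, a nucleoside diphosphate kinase, and *ANNAT1*, an annexin, reached 1 FPM in 1 QC cell each, at 71.9 and 47.1 FPM. In the 16 h cells *NDPK3* was at 609, 688, 466 and 807 FPM and *ANNAT1* at 623, 601, 1304 and 529 FPM.

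*LTI78*, also known as *RD29A*, was the cold and dehydration gene among the 8. It was at 1215, 844, 643 and 6080.5 FPM at 16 h and at 44.3, 32.4 and 131 FPM at 0 h. In QC cells it reached 0.218 FPM at most and was listed in 2 of 20. Its neighbor *LTI65* (*RD29B*) was at 39.3, 28.1, 21.5 and 219.7 FPM at 16 h, at 1.29, 1.35 and 4.87 FPM at 0 h and at 0 in all QC cells. Every 16 h cell held more of either gene than every 0 h cell, with the highest value of both in replicate 4.

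These were 2 of 23 dehydration and cold genes, a list drawn up after the values were seen, so that its counts describe it only. Of the list, 17 passed the filter, 12 were higher at 16 h by 2 or more in log2 medians and 0 were lower, against 67.7% and 2.97% of all genes compared. The dehydrin *LTI30* was QC-high yet was at 4733, 4854, 4242 and 919.7 FPM at 16 h against 0.0261 to 3294 FPM (median 60.3) in QC cells, and 3 of the 4 cells lay above the QC range. *COR47* was at 11723, 5554, 3135 and 12274 FPM against 38.3 to 8947 FPM (median 847), and *ERD10* at 8706, 3552, 739 and 11106 FPM against 440.1 to 28832 FPM (median 2254). *ERD14*, a dehydrin of the same family, was at 2128, 1993, 1862 and 3058 FPM against 42.6 to 9373 FPM (median 2453). For *ERD10* and *ERD14* all 16 h values lay within the QC range, and in QC cells 15 to 18 the median was 20301 FPM for *ERD10* and 1692 FPM for *LTI30*.

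The protective protein *LEA14* was at 1075, 608, 794 and 1787 FPM at 16 h against 0 to 769 FPM (median 0.224) in QC cells, with 7 of 20 at 1 FPM or more. *NAC019*, a NAC factor of abscisic acid and jasmonate responses, was at 902, 216, 255 and 438 FPM and stayed under 1 FPM in all QC cells. *ABI1*, a phosphatase that restrains abscisic acid signaling, was at 805, 592, 167 and 1171 FPM against 0.0355 to 1279 FPM (median 26.0). *HB-7*, an abscisic acid-responsive homeobox gene, was at 123, 181, 106 and 67.5 FPM at 16 h and 1.03, 0.533 and 26.9 FPM at 0 h. In contrast, *COR15A*, *COR15B*, *RAB18*, *RD22* and *RD20* were listed at 0 in every QC and stele cell, *CBF1* was at 0 in all 16 h cells, and *CBF2* was at 0.126, 2.87, 74.6 and 0.128 FPM, so that members of the list differed.

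The upstream sequences of *LTI78* and *LTI30* are shown because the DRE/CRT core CCGAC, the element that DREB and CBF factors bind, was first described at *LTI78*, and *LTI30* is the dehydrin of the list with the widest gap to QC cells. Each is the 250 bases before the annotated gene start on the gene's strand, from RefSeq's TAIR10.1, at chr5:21240467-21240716 (+) for *LTI78* and chr3:18940393-18940642 (+) for *LTI30*. Capitals mark CCGAC and its reverse complement GTCGG.
LTI78: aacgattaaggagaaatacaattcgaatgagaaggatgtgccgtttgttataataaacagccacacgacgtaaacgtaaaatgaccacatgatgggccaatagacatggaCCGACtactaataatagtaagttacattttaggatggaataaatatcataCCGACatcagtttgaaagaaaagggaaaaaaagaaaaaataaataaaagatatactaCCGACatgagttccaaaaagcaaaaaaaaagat
LTI30: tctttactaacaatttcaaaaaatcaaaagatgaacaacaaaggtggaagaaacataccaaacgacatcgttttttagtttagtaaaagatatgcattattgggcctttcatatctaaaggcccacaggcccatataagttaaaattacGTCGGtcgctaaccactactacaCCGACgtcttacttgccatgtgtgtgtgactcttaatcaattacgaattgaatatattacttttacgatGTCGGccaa
*LTI78* held 3 copies on the gene strand, and *LTI30* 1 on the gene strand and 2 on the other. Of 26712 protein-coding loci with a window of this length, 11.9% held the core on either strand. Among genes of 16 h cells not in QC cells the share was 15.4% of 272, and among QC-high genes 14.6% of 1481. The abscisic acid-related core ACGTG, which can overlap the end of CCGAC, was in 23.1% of all windows, 22.4% of the first group and 28.0% of the second. A match is a stretch of letters and not a shown site. The shares of the groups lay near each other for CCGAC, and for ACGTG the QC-high genes had the higher share.

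The genes that 16 h cells held and neither QC cells nor 0 h cells did numbered 22. The 8 most abundant were *AT3G28600*, *AT5G17980*, *AT3G01490*, *LPR2*, *AT1G43910*, *AT1G07200*, *AT3G22160* and *ANAC096*. *AT3G28600*, a P-loop nucleoside triphosphate hydrolase, was at 73.8, 64.4, 514 and 780.0 FPM at 16 h and at 0 in all QC and 0 h cells. *AT3G01490*, a protein kinase, was at 244, 224, 194 and 384 FPM and likewise at 0 elsewhere. *LPR2*, a multicopper oxidase of the root tip's phosphate response, was at 52.0, 24.2, 301 and 604 FPM, with 0 h values from 0.344 to 0.498 FPM.

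*AT5G17980*, a C2 domain protein, was at 31.4, 239, 390.0 and 235 FPM, and *AT1G43910*, another P-loop protein, at 13.0, 321, 47.9 and 252 FPM. *AT1G07200*, a double Clp-N motif protein, was at 20.22, 124, 138 and 167 FPM at 16 h, with 1 QC cell at 142 FPM. *AT3G22160*, a VQ motif protein, was at 123, 105, 34.6 and 97.6 FPM, with 1 QC cell at 45.3 FPM. The count of 22 was 38, 36, 38 and 44 without 16 h replicates 1 to 4 in turn, 12 with any read taken as present and 11 with the limit at 20 FPM.

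**Figure D3:**
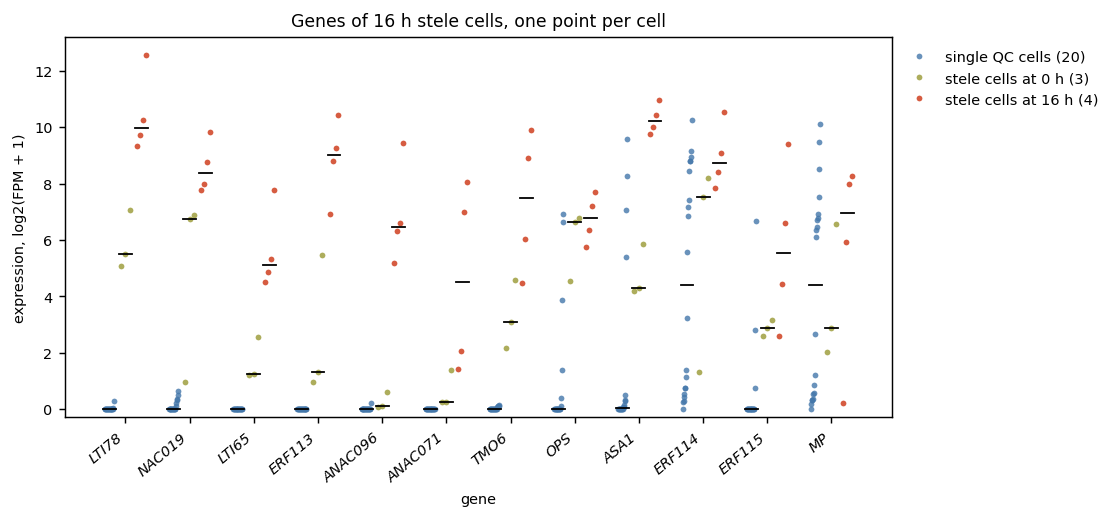
The y axis gives log2(FPM + 1) and each point is 1 cell, for 12 genes in the 20 single QC cells, the 3 cells of 0 h stele and the 4 of 16 h stele, with a bar at the group median. *LTI78*, *NAC019*, *LTI65*, *ERF113*, *ANAC096* and *TMO6* are under 1 FPM in every QC cell, whereas *ERF114* and *MP* overlap between QC cells and 16 h cells.

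Several wound and regeneration factors were present in 16 h cells and near absent from QC cells. *ANAC096* and *ANAC071*, NAC genes that act with auxin when a cut stem rejoins, were at 34.9, 79.3, 691 and 95.6 FPM and at 126, 3.13, 263 and 1.67 FPM at 16 h. At 0 h they were at 0.516, 0.0711 and 0.0492 FPM and 1.63, 0.178 and 0.197 FPM. *ANAC071* was listed at 0 in all QC cells, and *ANAC096* reached 0.146 FPM at most. *ERF113* (*RAP2.6L*), a gene of tissue reunion and shoot regeneration, was at 1373, 119.9, 615 and 443 FPM at 16 h, at 42.7, 0.925 and 1.48 FPM at 0 h and at 0 in all QC cells.

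*ERF114*, its close homolog, was at 542, 227, 1496 and 338 FPM at 16 h and at 0 to 1225 FPM (median 27.2) in QC cells, with 13 of 20 QC cells at 1 FPM or more. *ERF115*, which drives replacement divisions of root stem cells after damage, was at 20.8, 5.09, 676 and 96.4 FPM at 16 h and at 6.36, 4.98 and 8.02 FPM at 0 h, and 2 of 20 QC cells held it. Replicate 3 was highest for *ERF113*'s homologs *ERF114* and *ERF115* alike. *ERF109*, an early wound gene, went the other way in time. It was at 741, 545 and 477 FPM at 0 h and 3.18, 53.9, 1.28 and 62.2 FPM at 16 h. QC cells held it at 0 to 335 FPM (median 4.88). The part of cutting and digestion in these levels was not tested. *WIND1* and *WIND2*, AP2 factors of callus formation, were QC-high and present in all 16 h cells, at 61.8, 240.0, 437 and 83.1 FPM and 52.4, 57.3, 368 and 7.78 FPM against QC medians of 177 and 332 FPM.

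Over the 22 factors listed, 18 passed the filter, with 8 higher and 4 lower at 16 h by 2 or more in log2 medians, against 67.7% and 2.97% of all genes, and their median difference of 1.65 lay below the 3.05 of all genes compared. It was -1.37 against QC cells 15 to 18 alone. The stress factors *ZAT10* and *ZAT12* were at 37.3, 100.1, 408 and 133 FPM and 30.7, 129, 397 and 64.8 FPM at 16 h, against QC medians of 371 and 1127 FPM. *WRKY40* and *WRKY33* were at 405, 49.99, 246 and 0.941 FPM and 143, 286, 138 and 0.171 FPM, with replicate 4 under 1 FPM for both, and their differences of 3.08 and 6.65 from QC cells turned against QC cells 15 to 18 to -1.89 and -1.14. *LBD16*, an auxin target of lateral root founding, was at 3.81, 0.227, 36.5 and 0 FPM at 16 h and listed at 0 in all QC and 0 h cells. *WOX12*, the partner of *WOX11*, was at 0 in all stele cells and at 1 FPM or more in 13 of 20 QC cells.

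Of the 23 jasmonate genes, 15 passed the filter, 9 were higher at 16 h and 1 was lower by 2 or more in log2 medians, against 67.7% and 2.97% of all genes compared, with a median difference of 3.90 that was -0.21 against QC cells 15 to 18. The synthesis gene *AOC3* was at 287, 1689.9, 2695 and 888 FPM at 16 h against 0 to 2965 FPM (median 17.5) in QC cells, and its difference of 6.06 was -0.32 against QC cells 15 to 18 alone. *AOS*, the enzyme before it, was QC-high and was at 28.9, 341, 2838 and 4.53 FPM against 0.488 to 3451 FPM (median 438). Replicate 3 held the highest *AOS*, *AOC3* and *LOX3*, the last at 2.01, 1.34, 222 and 0.513 FPM. The JAZ repressors are themselves targets of the hormone. *JAZ3* was the 1 gene of these 15 without overlap, at 81.9, 251, 46.6 and 77.7 FPM at 16 h against at most 31.6 FPM in QC cells. Over all genes compared, 10.2% were higher without overlap, a share that 1 of 15 does not exceed. *JAZ1*, *JAZ2*, *JAZ10* and *JAZ12* were QC-high and present in all 16 h cells, with *JAZ1* at 1251, 916, 282 and 1775 FPM against 1.10 to 2733 FPM (median 532). The effector genes *VSP1* and *VSP2* were listed at 0 throughout. *MYC2*, the central transcription factor, was at 1.34, 95.8, 137 and 111 FPM at 16 h and 449.9, 598 and 256 FPM at 0 h, and its difference of 5.37 from QC cells turned to -3.03 against the set of QC cell 14.

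Stele and vascular regulators were held unevenly, as the map of stele regulators shows. None of the 26 was QC-high, 12 passed the filter, 7 were higher than in QC cells by 2 or more and 0 were lower, where all genes compared gave 67.7% and 2.97%, and 5 reached 1 FPM in every 16 h cell against 14 in every 0 h cell. The HD-ZIP III genes pattern xylem and procambium. *PHB* was at 1.72, 13.7, 1.21 and 14.2 FPM at 16 h and 146, 35.4 and 129 FPM at 0 h. *CNA* was at 2.26, 1.25, 9.01 and 1.28 FPM and 373, 29.1 and 233 FPM. *REV* was higher at 16 h than either of these in medians, at 173, 20.4, 209.5 and 0.983 FPM against 208, 239 and 108 FPM. For *PHB*, *CNA* and *ATHB8* every 16 h cell lay below every 0 h cell, and 3 of 4 did for *WOL*.

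**Figure D4:**
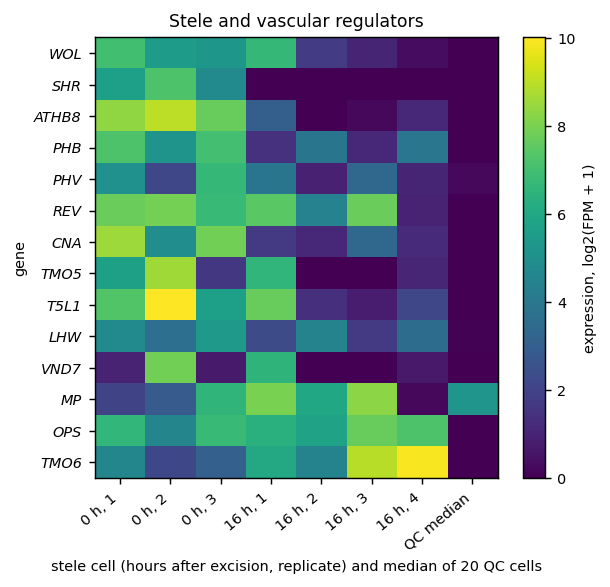
Color gives log2(FPM + 1) for 14 stele and vascular regulators in each of the 3 stele cells at 0 h and the 4 at 16 h, with the median of the 20 single QC cells in the last column. *SHR* is at 0 in all 16 h cells, *TMO5*, *T5L1* and *VND7* are high in replicate 1 at 16 h, and *TMO6* is highest in replicate 4 at 953 FPM.

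Other vascular genes were held at 16 h. *OPS*, a polarity gene of the protophloem, was at 81.4, 53.1, 206 and 146 FPM at 16 h and 97.4, 22.3 and 108 FPM at 0 h, with 4 of 20 QC cells at 1 FPM or more and a median of 50.6 FPM in QC cells 15 to 18. *TMO6*, a Dof gene of the early vascular cylinder, was at 64.5, 21.5, 484 and 953 FPM at 16 h and 22.9, 3.45 and 7.43 FPM at 0 h and at most 0.0973 FPM in QC cells. *MP*, the auxin response factor upstream of *TMO6* and *TMO5*, was at 254, 60.4, 306 and 0.171 FPM at 16 h and at 0 to 1098 FPM (median 36.6) in QC cells, and overlapped between the groups.

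Replicate 1 held vascular genes that were low or at 0 in the other 16 h cells. *TMO5*, a bHLH gene of vascular divisions, was at 95.0, 0, 0 and 1.11 FPM, and its homolog *T5L1* at 202, 1.59, 0.696 and 3.42 FPM. *VND7*, the switch of protoxylem fate, was at 89.0, 0, 0 and 0.599 FPM. All were listed at 0 in QC cells. The auxin-responsive *GH3.6* was likewise highest in replicate 1, at 801, 0, 0 and 0.342 FPM at 16 h and 581, 69.0 and 85.8 FPM at 0 h, as was *IAA30* at 48.9, 0, 0 and 0 FPM.

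Auxin transport genes of the list were in part lower at 16 h than at 0 h. *PIN3*, an efflux carrier, was at 5.65, 6.51, 1.83 and 5.09 FPM at 16 h and 232, 318 and 105 FPM at 0 h, and *LAX3*, an influx carrier, at 5.15, 3.81, 0.916 and 0.812 FPM and 1532, 228 and 441 FPM. Both lay below every 0 h cell in all 4 of the 16 h cells. *PIN2*, an efflux carrier of the epidermis and cortex, was at 6.197, 31.2, 1.91 and 43.6 FPM and 1.98, 1.17 and 0.836 FPM, with 3 of 4 cells above those at 0 h, and its difference of 3.93 from QC cells was -0.41 against the set of QC cell 14. *AUX1* was at 26.9, 0.597, 155 and 2.01 FPM at 16 h and listed at 0 in all QC cells. Of the 22 auxin genes, 14 passed the filter, 8 were higher than in QC cells and 1 was lower by 2 or more, beside shares of 67.7% and 2.97% over all genes. The tryptophan pathway gene *ASA1*, upstream of auxin and named after its values were seen, was at 1985, 1034, 873 and 1397 FPM at 16 h, at 17.1, 56.8 and 18.7 FPM at 0 h and at 0 to 756 FPM (median 0.0277) in QC cells, the 16 h cells above both.

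Of the 19 cytokinin genes, 5 passed the filter, with 3 higher and 0 lower, beside the same 67.7% and 2.97%. The receptor *AHK3* was QC-high and was at 139, 131, 70.2 and 411 FPM at 16 h against 0.118 to 1603 FPM (median 64.8). The B-type response regulator *ARR1* was at 61.7, 76.3, 109 and 86.5 FPM against 0 to 407 FPM (median 3.39), and *ARR10* was at 61.2, 6.62, 16.7 and 0.128 FPM and listed at 0 in QC cells. The A-type regulators *ARR3*, *ARR5*, *ARR7*, *ARR15* and *ARR16*, which respond to the hormone, were at 0 in all 16 h cells.

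Genes of the cell cycle were mostly listed at 0 at 16 h, as were most loci. Replicate 1, within which the other 16 h cells were nested, listed 13452 of 32678 loci. Of 20 S phase genes, 12 were listed at 0 in all 16 h cells, the licensing genes *MCM2* to *MCM7* among them. At least 3 of 20 QC cells held each of these licensing genes except *MCM5*, with 2. For *MCM3* to *MCM7*, all QC cells at 1 FPM or more were in the set of QC cell 14. *PCNA1* and *PCNA2*, the replication clamp, were at 2.51, 3.61, 1.39 and 71.8 FPM and 48.3, 68.4, 38.7 and 284 FPM at 16 h and were present in 3 of 20 QC cells, with a difference of 2.01 for *PCNA1* that was -3.45 against the set of QC cell 14. At 0 h *PCNA1* was listed at 0 and *PCNA2* was at 0.945, 10.8 and 0.344 FPM. All 4 of the 16 h cells thus held more of either gene, but the list as a whole went the other way. Of its 20 genes, 6 were listed at 0 in all 0 h cells, against the 12 at 16 h. The 0 h cells held 13, 8 and 7 of them at 1 FPM or more, and the 16 h cells 5, 6, 6 and 5. Of 21 mitosis genes, 16 were listed at 0 in all 16 h cells and 11 in both groups, the B-type cyclins included. *CYCD2;1*, a G1 cyclin, and *SIM*, an inhibitor of mitotic CDKs, both named after their values were seen, were at 10.6, 13.4, 50.8 and 104 FPM and 20.0, 14.7, 14.9 and 16.6 FPM and at 0 in all QC cells.

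Markers of endodermis, root cap and epidermis were summed as a check for other cell types. The 8 endodermis markers summed to at most 0.126 FPM in a 16 h cell and were at 0 in all QC cells. The study's own endodermis list of 20 genes summed to 37.1, 49.99, 115 and 54.8 FPM at 16 h and 0 to 100.5 FPM in QC cells. Of the 7 root cap markers, *FEZ*, *SMB*, *BRN1* and *BRN2* were listed at 0 in both groups, and the list summed to 13.4, 11.4, 0.403 and 0 FPM at 16 h, 55.3, 9.46 and 39.5 FPM at 0 h and 0 to 278 FPM in QC cells. Among the 9 epidermis markers, *WER*, *RHD6*, *COBL9* and *EXP7* were at 0 in both groups, *GL2* was at 4.65, 0.256, 0.0366 and 0.0428 FPM, and *RSL4*, a root hair factor, was at 162, 0.0568, 3.55 and 0.0428 FPM. The epidermis list summed to 195, 26.6, 47.6 and 79.0 FPM at 16 h, 34.4, 26.1 and 84.8 FPM at 0 h and 0 to 634 FPM in QC cells. The part of these lists in the comparisons above was not tested.

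The study's own marker lists, made from microarrays and not from these libraries, were read in the same way. Of its 24 QC markers, the 16 h cells held 8, 6, 4 and 3 at 1 FPM or more, the 0 h cells 7, 5 and 4, and QC cells from 4 to 21 with a median of 9.5. The summed level of the list was 91.8, 36.1, 113 and 22.7 FPM at 16 h against 147 to 11832 FPM in QC cells, without overlap. Among them *RIP5*, an interactor of ROP GTPases, reached 1 FPM in all 4 cells, at 3.48, 4.12, 1.54 and 1.80 FPM against 1.56 to 1145 FPM (median 103) in QC cells. *AT5G41620*, a USO1-like protein, was at 33.0, 13.1, 49.6 and 4.36 FPM at 16 h and 2.06, 1.28 and 0.0984 FPM at 0 h, with 3 of 20 QC cells at 1 FPM or more.

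Of 23 meristematic xylem markers, the 16 h cells held 8, 6, 7 and 6, the 0 h cells 16, 11 and 13, and QC cells from 1 to 7 with a median of 2. In the late phloem pole pericycle list of 26, they held 9, 6, 8 and 5, the 0 h cells 10, 8 and 9, and QC cells 4 at most. Counts of the lateral root meristem list of 29 were 9, 6, 7 and 3 at 16 h and 7, 3 and 5 at 0 h. For xylem the counts at 16 h lay below those of all 0 h cells and 3 of the 4 lay within the QC range, and for QC markers the counts at both times overlapped. The number of genes listed in a library was at least 11316 in each stele cell and at most 11035 in a QC cell. Its part in these counts was not tested.

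**Figure D5:**
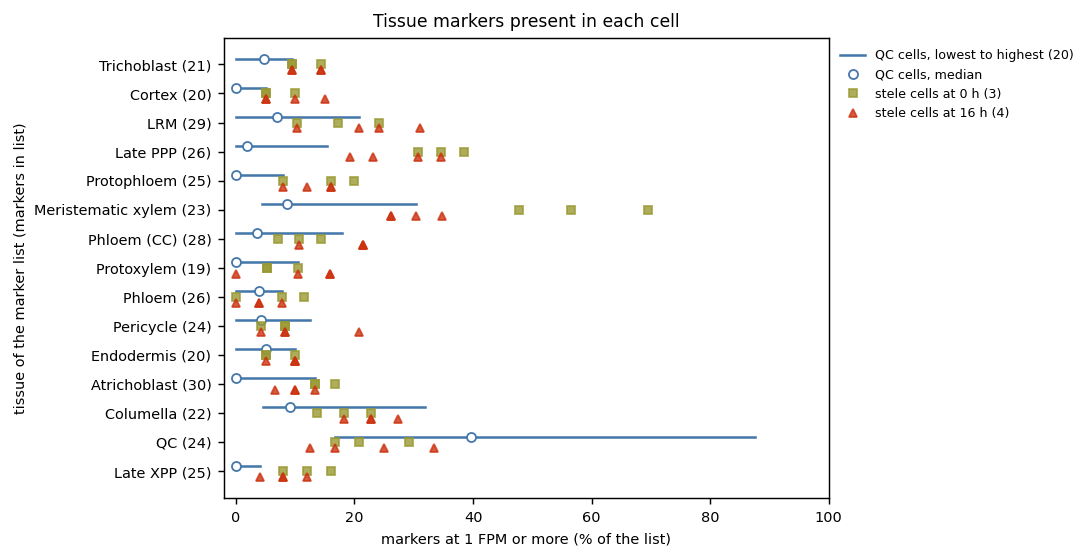
The x axis gives the percent of each of 15 tissue marker lists at 1 FPM or more, with the lowest, median and highest of the 20 single QC cells as a line and open circle, and each of the 3 stele cells at 0 h and 4 at 16 h as a point. For QC markers the QC median of 9.5 of 24 lies to the right of all stele cells, and for meristematic xylem the 16 h cells, at 6 to 8 of 23, lie to the left of the 0 h cells, at 11 to 16.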

How the data were processed

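Per the methods, root tips first lay about 1 h in enzymes that loosen the wall between cells. Single cells were then isolated by hand from these fluorescent roots and their cDNA was amplified and sequenced. When choosing markers, the authors left out genes that such digestion is known to induce. The part of digestion in the wound, stress and hormone genes described here was not tested. Per the methods, the authors aligned reads to TAIR10 with Bowtie2, counted reads per gene and removed genes with low coverage. Reads with several locations were counted in part. The values were deposited on a log2 scale, with 1 added, after a normalization to depth that the authors state. Undoing the log2 nevertheless gave whole numbers (within 0.05) for 100% of the values under 1000, with unequal totals, so they were read as read counts per locus. The 2 reporter sequences were left out, and the 32678 loci were scaled to 1000000 per library (FPM). A list was described over genes with a median of at least 1 FPM in either group, and counted as higher or lower at a difference of 2 on the log2(FPM + 1) scale of medians. Sets of QC libraries were formed from nested gene lists, and QC cells 15 to 18 formed the last. With 1 sample per group no test of a difference between groups was run. Dixon's test served only to flag single cells among those at 16 h.

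Members and lists were chosen with earlier results of these data known. Genes named are *WOX5*, *BBM*, the 8 leading genes of each class, all genes of the smallest classes, and list members by role. Some genes that the rule names are not reported here. Others are said to have been named after their values were seen. The study's 15 marker lists come from microarrays. Symbols and upstream windows come from RefSeq TAIR10.1, which matched 31912 loci. Alternatives were other limits, a pseudocount of 0.1 FPM, thinning, median ratio scaling, pairs counted once, single QC sets and each stele cell left out. Scripts used Python 3.11.15, numpy 2.4.6, pandas 2.3.3 and matplotlib 3.10.9, and were tested on simulated data.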

Additional observations from a re-analysis of the deposited data

Results flagged for a closer look

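In 24 of 167 groups of 4 values at 16 h, 1 cell stood apart by Dixon's test at 95%, where chance alone gives about 1 in 20. In 8 of the 24 the other 3 cells were at 0, so that any value above 0 stands apart and that share does not apply. Single cells are not replicates, and the cells are named as a description. Replicate 1 was the high cell for the QC genes *WOX5* at 1.51 FPM, *BBM* at 4.19 FPM, *PLT1* at 0.126 FPM, *PLT2* at 0.921 FPM, *WIP4* at 0.167 FPM, *IAA33* at 0.209 FPM and *AT2G44280* at 0.586 FPM. It was also the high cell for the auxin conjugating enzymes *GH3.4* at 0.796 FPM, *GH3.2* at 7.16 FPM and *GH3.6* at 801 FPM, for *UGT74E2* at 5.82 FPM, for *TGA7* at 1.55 FPM and for *IAA30* at 48.9 FPM. The vascular genes *TMO5* at 95.0 FPM and *VND7* at 89.0 FPM and the epidermis gene *GL2* at 4.65 FPM were highest in the same cell. Replicate 1 was in turn the low cell for *MYC2* at 1.34 FPM and *AT1G07200* at 20.22 FPM. Replicate 3 was the low cell for *HSPRO2* at 715 FPM and the high cell for the lipoxygenase *LOX3* at 222 FPM. Replicate 4 was the low cell for *RAN4* at 7.01 FPM, *WRKY33* at 0.171 FPM and *LTI30* at 919.7 FPM, and for the number of QC-high genes at 1 FPM or more, which was 1341.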

How the results depend on the processing

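No paired analysis was possible because no comparison comes from a test and no replicate number ties cells of different groups to a shared plant. Of 127 alternative values of the gene counts, 79 lay within 1.5 times the main count and 48 did not. With any read taken as present, 2002 QC-high genes were had, 136 genes of 16 h cells were not in QC cells and 12 were in neither reference. With high set at 20 FPM, 155 and 11 were not in QC and in neither. With nearly alike pairs counted once, 161 were not in QC and 15 were lower by 2 or more. Median ratio scaling gave 32 lacked, 15 gained and 21 lower. The set of QC cell 1 alone gave 24 lacked, 1177 not in QC, 42 in neither, 15 gained, 92 lower and 4494 higher. The set of QC cell 2 gave 25, 1310.0, 43, 22, 112 and 4819 for the same classes. The set of QC cell 14 gave 2496 QC-high, 160 lacked, 570 not in QC, 56 gained, 627 lower and 3129 higher. QC cells 15 to 18 gave 4406 QC-high, 3064 had, 182 lacked, 852 not in QC, 34 in neither, 70 gained, 536 lower and 4212 higher. These sets hold 3 to 7 cells, so their limits on how many cells must hold a gene are met by fewer cells. With 1 stele cell left out, had ran from 1310 to 1413, lacked from 15 to 27, genes of 16 h cells from 4143 to 5079, not in QC from 343 to 486, in neither from 26 to 44, gained from 4 to 25, lower from 8 to 26 and higher from 1132 to 1666. A pseudocount of 0.1 FPM moved 48 of 163 gene differences by more than the spread between cells and turned none. Of the 163 genes, 29 turned in direction against at least 1 set, *JAZ1* and *ERD10* among them, at -0.28 and -1.74. Of the 29, 8 had a difference of 2 or more. Against the set of QC cell 14 the differences were 0.25 for *AT1G05675*, -3.03 for *MYC2*, -3.45 for *PCNA1* and -0.41 for *PIN2*. Against QC cells 15 to 18 they were -0.32 for *AOC3*, -1.89 for *WRKY40* and -1.14 for *WRKY33*, and against the set of QC cell 2 it was 0.63 for *BRI1*. The cause was not tested. With 4 cells from unnamed plants, differences between cell states and between plants cannot be told apart.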
